A study of Homo sapiens with 8 samples.

Results

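The genes described here were SREBF1 and 9 genes of fatty acid synthesis: FASN, ACACA, ACLY, SCD, ELOVL6, FADS1, FADS2, LPIN1 and ACSS2. They were chosen by name, as the gene for the transcription factor SREBP-1 and genes that it is known to activate. The rule itself used no measured value, but the choice was made with earlier results of these data known. Counts of these genes beside all genes therefore describe them and do not test them as a set. All 10 were among the 23228 gene symbols counted, and all 10 passed the filter on low counts that left 13694 genes to test. RNA-seq was performed on BT-549, an established triple-negative breast cancer cell line with mesenchymal features, in 8 libraries of 4 groups with 2 libraries each. Cells received the DMSO vehicle, EC359 at 100 nM, vorinostat at 10 µM, or EC359 and vorinostat together at those doses (the combination), each for 24 h. EC359 is a small molecule inhibitor of LIFR, the receptor for leukemia inhibitory factor, and vorinostat (SAHA) inhibits histone deacetylases (HDACs). The study asked how blocking LIFR alters the response of these cells to an HDAC inhibitor. All libraries came from a single cell line in culture, so cells of a tumor other than the cancer cells were not represented.

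SREBP-1 is made as a precursor that is held in the membrane of the endoplasmic reticulum by SCAP and the INSIG proteins. When sterols are low, SCAP carries it to the Golgi, where proteases release the part that enters the nucleus and switches on lipogenic genes, often with the general factors NF-Y and Sp1 bound nearby. The enzymes act in series: ACLY and ACSS2 supply acetyl-CoA, ACACA carboxylates it to malonyl-CoA, FASN builds palmitate, ELOVL6 and the desaturases SCD, FADS1 and FADS2 lengthen and desaturate the chain, and LPIN1 makes the diacylglycerol into which fatty acids are built. Cancer cells often make fatty acids in this way rather than take them from the blood.

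Each library held between 19069450 and 24759041 counts on genes. Levels are given as CPM, the counts of a gene scaled to the library total after TMM normalization, and are therefore shares of the mRNA measured in a library. A change in cell number or in RNA per cell cannot be told apart from these values. The CPM of the cell markers in this paragraph were scaled to the library total alone, without TMM. The mesenchymal markers VIM (2094 to 9107 CPM over the 8 libraries), FN1 (1915 to 4425 CPM) and SPARC (870 to 3521 CPM) were abundant, as the labelled cell line has them. The receptor genes ESR1 (at most 20 counts) and PGR (at most 1 count) were at or near 0, while ERBB2 ranged from 11.5 to 104 CPM. The epithelial genes EPCAM and CDH1 reached 4.35 and 2.25 CPM. The luminal markers KRT8, KRT18, KRT19 and GATA3 reached 9.86, 7.73, 3.79 and 3.20 CPM. The markers of blood, endothelial and fat cells (PTPRC, CD3E, CD14, PECAM1 and ADIPOQ) held at most 42 counts each. The 2 libraries of a group differed by more than sampling noise, most in the EC359 group, where the SD across genes of their log2 difference was 0.56, against 0.31 to 0.45 in the other groups. For the 10 genes the log2 difference between libraries of a group stayed between -0.23 and 0.20. The labels do not say whether the libraries came from separate cultures, so the p-values measure only the spread between these libraries.

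To show the start sites of genes that went different ways, the promoters of SREBF1 and ACSS2, which rose with vorinostat, are printed beside those of SCD and ELOVL6, which fell. They run from 250 bases before to 50 bases after the start site in RefSeq on GRCh38.p14 and are written 5′ to 3′ on the strand of the gene. The windows are chr17:17836937-17837236 (minus strand) for SREBF1, chr20:34876362-34876661 (plus strand) for ACSS2, chr10:100346983-100347282 (plus strand) for SCD and chr4:110198566-110198865 (minus strand) for ELOVL6. Capitals mark CCAAT, the letters bound by NF-Y, and GGGCGG, the GC box bound by Sp1, on either strand.
SREBF1: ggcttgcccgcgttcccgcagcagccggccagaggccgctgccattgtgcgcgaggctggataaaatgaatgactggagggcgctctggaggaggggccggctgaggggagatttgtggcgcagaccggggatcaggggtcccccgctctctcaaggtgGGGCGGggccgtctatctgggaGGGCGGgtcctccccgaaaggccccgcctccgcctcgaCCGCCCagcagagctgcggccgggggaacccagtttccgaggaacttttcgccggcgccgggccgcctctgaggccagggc
ACSS2: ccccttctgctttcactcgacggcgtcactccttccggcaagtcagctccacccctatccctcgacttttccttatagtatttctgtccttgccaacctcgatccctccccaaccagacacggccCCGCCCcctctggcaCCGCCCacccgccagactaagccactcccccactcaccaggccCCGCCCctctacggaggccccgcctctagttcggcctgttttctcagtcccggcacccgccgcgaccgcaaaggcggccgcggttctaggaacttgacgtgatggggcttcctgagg
SCD: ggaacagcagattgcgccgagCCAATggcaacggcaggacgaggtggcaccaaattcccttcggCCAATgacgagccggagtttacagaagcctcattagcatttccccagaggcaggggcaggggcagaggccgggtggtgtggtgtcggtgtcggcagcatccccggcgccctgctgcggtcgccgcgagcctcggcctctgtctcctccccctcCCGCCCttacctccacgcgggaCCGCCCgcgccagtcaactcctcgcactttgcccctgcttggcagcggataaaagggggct
ELOVL6: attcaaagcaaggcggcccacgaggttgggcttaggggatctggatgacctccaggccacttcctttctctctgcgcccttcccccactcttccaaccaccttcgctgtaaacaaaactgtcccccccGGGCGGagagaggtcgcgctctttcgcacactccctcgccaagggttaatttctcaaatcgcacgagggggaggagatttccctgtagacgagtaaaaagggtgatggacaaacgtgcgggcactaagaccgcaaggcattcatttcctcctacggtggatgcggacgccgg
Of these 4 windows, that of SREBF1 held 3 GC boxes, that of ACSS2 held 3 and that of ELOVL6 held 1, all without CCAAT, and that of SCD held 2 CCAAT boxes and 2 GC boxes. The RefSeq table held 16 windows for 9 of the 10 genes, and FASN was not among them. A GC box was found in 13 of these 16 windows, with at least 1 such window for each of the 9 genes, and in 45% of all 35116 promoters of that length. CCAAT was found in 7 of the 16 windows (of ACACA, ACLY, SCD, FADS2 and ACSS2, the last in another window than the one printed) and in 34.6% of all promoters. Windows of the same gene can overlap and are not independent. The sterol regulatory element TCACNCCAC and the E-box CACGTG, both searched on the 2 strands, were in 0 of the 16 windows, against 1.13% and 7.26% of all promoters. The boxes of different kinds did not overlap, whereas some GC boxes of ACACA overlapped each other. Such matches describe the letters of these windows alone.

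In vehicle, SCD was the most abundant of the 10 genes per length of transcript, at 567 ± 8.57 RPKM (SD, n = 2), which is CPM divided by the kilobases of the representative transcript. FADS2 (167 RPKM), ACLY (110 RPKM), FASN (86.3 RPKM), FADS1 (83.5 RPKM) and SREBF1 (71.8 RPKM) followed. ACACA (14.2 RPKM), LPIN1 (13.9 RPKM), ACSS2 (9.67 RPKM) and ELOVL6 (8.03 RPKM) were lower. No neighbours in this order overlapped between libraries, although FASN and FADS1 (84.4 to 88.2 and 83.3 to 83.7 RPKM) and ACACA and LPIN1 lay close. In the vorinostat group SREBF1 stood second at 300 ± 1.94 RPKM (SD, n = 2), below SCD at 316 RPKM. In the combination SREBF1 (62.1 RPKM) was second again, and its libraries overlapped those of ACLY (60.3 RPKM).

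**Figure D1:**
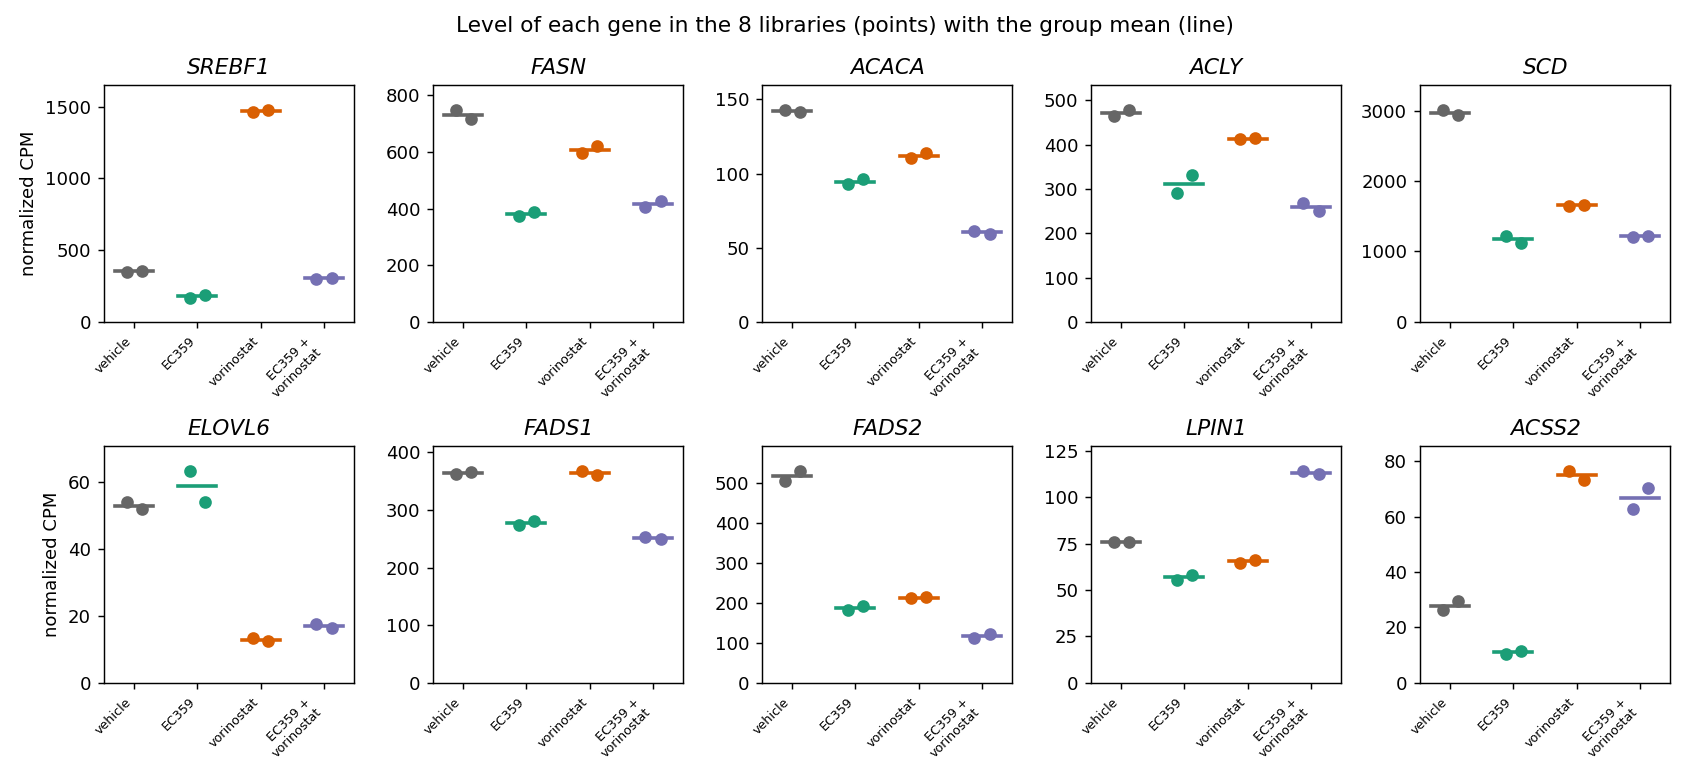
Level of each of the 10 genes in each library, in normalized CPM on a linear axis that starts at 0. Points are the 2 libraries of a group and the line is their mean. SREBF1 stands between 1462 and 1475 CPM with vorinostat alone and at or below 354 CPM in every other library. SCD, FADS2, FASN, ACACA and ACLY lie below vehicle in all 6 treated libraries.

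A gene was called higher or lower when its adjusted p was under 0.01 and its log2 fold change was beyond 1 in either direction, and "rose" or "fell" is used at an adjusted p under 0.01 whatever the size. Unless DESeq2 or another alternative fit is named, every adjusted p comes from the quasi-likelihood test of edgeR, adjusted with the Benjamini-Hochberg procedure over all 13694 genes. EC359 against vehicle called 3 of the 10 genes lower (SCD, FADS2 and ACSS2) and 0 higher, where 1.72% and 1.94% of all tested genes were called. At the adjusted p alone 8 of the 10 fell and 0 rose, against 4.01% and 3.81% of all genes, and the exceptions were ELOVL6 and LPIN1. The median log2 fold change of the 10 genes was -0.77, beside -0.02 for all genes. Vorinostat against vehicle called 2 higher (SREBF1 and ACSS2) and 2 lower (ELOVL6 and FADS2), which is close to the 16.8% and 13.3% of all genes that it called. At the adjusted p alone 2 rose and 4 fell, with 26.2% and 25.9% of all genes. The median was -0.24, beside 0.03 for all genes.

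The combination against vehicle called 1 gene higher (ACSS2) and 4 lower (ACACA, SCD, ELOVL6 and FADS2), where 19.5% and 15.3% of all genes were called. At the adjusted p alone 2 rose and 7 fell, against 29.7% and 26.7% of all genes, and only SREBF1 did not pass. The median was -0.84, beside 0.07 for all genes. Adding EC359 to vorinostat (the combination against vorinostat) called 1 gene lower, SREBF1, and 0 higher, where 0.876% and 3.37% of all genes were called. With total counts in place of TMM these calls over all genes split into 380 higher and 182 lower, in place of 462 and 120. At the adjusted p alone 7 of the 10 fell and 1 rose, against 5.26% and 8.45% of all genes. The median was -0.54, beside -0.01 for all genes. Adding vorinostat to EC359 (the combination against EC359) called 1 higher, ACSS2, and 1 lower, ELOVL6, where 19.8% and 13.9% of all genes were called. At the adjusted p alone 3 rose and 3 fell, against 29.5% and 26.3% of all genes. The median was -0.05, beside 0.06 for all genes.

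SREBF1, at chr17:17713713-17740316 on the minus strand (GRCh37, like all gene positions that follow), held 350 and 354 CPM in the vehicle libraries and 166 and 190 CPM with EC359. It held 1462 and 1475 CPM with vorinostat and 301 and 308 CPM in the combination. The 4 groups did not overlap, and the vorinostat libraries stood apart from all others. With EC359 SREBF1 fell by 0.98 on the log2 scale (SE 0.09, adjusted p = 1.1e-04). With vorinostat it rose 4.17-fold (log2 fold change 2.06, SE 0.09, adjusted p = 3.2e-07). When EC359 was added to vorinostat it fell by 2.27 on the log2 scale, that is 4.82-fold (SE 0.09, adjusted p = 7.0e-07). The combination and vehicle did not differ past the threshold (log2 fold change -0.21, 95% confidence interval -0.41 to -0.01, adjusted p = 0.055). The change with EC359 was -1.08 without EC359 replicate 2, which passed the fold threshold too, and -0.88 without EC359 replicate 1. In a fit of the vehicle and EC359 libraries alone it was -0.96 and missed the threshold (adjusted p = 0.012). The difference between the combination and vehicle passed in 3 of 16 alternatives, among them a fit of the combination and vehicle libraries alone (-0.24, adjusted p = 0.0096). The table counts all SREBF1 transcripts together and does not separate its start sites.

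The 3′ end of SREBF1 overlaps RAI1 on the opposite strand, by 556 exonic bases in GENCODE. The strand setting of the counting was not given in the sources used here, so reads in that stretch cannot be assigned to either gene. RAI1 fell with vorinostat while SREBF1 rose (log2 fold change -2.02 for RAI1, adjusted p = 5.2e-06). On adding EC359 to vorinostat the log2 fold change of RAI1 was -0.08 (adjusted p = 0.75). The microRNA gene MIR33B lies in an intron of SREBF1 and held 0 to 3 counts. FADS1 and FADS2 overlap on opposite strands by 490 exonic bases in this annotation, and FADS2 overlaps FEN1 by 49. The counting used RefSeq genes, whose overlaps were not examined. A small part of the counts of these genes may therefore be uncertain in the same way.

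Of the 2 suppliers of acetyl-CoA, ACSS2 changed with each drug and ACLY with EC359. ACSS2 (chr20:33459949-33515765, plus strand), which makes acetyl-CoA from acetate, held 26.4 and 29.4 CPM with vehicle and 10.5 and 11.4 CPM with EC359. It held 76.5 and 73.4 CPM with vorinostat and 62.9 and 70.4 CPM in the combination. No groups overlapped, and the vorinostat and combination libraries were the highest. EC359 lowered it 2.56-fold (log2 fold change -1.35, SE 0.12, adjusted p = 1.0e-04), and vorinostat raised it 2.69-fold (1.43, SE 0.11, adjusted p = 6.0e-06). It rose 6.11-fold when vorinostat was added to EC359 (2.61, SE 0.12, adjusted p = 3.0e-07). On adding EC359 to vorinostat the log2 fold change was -0.17, with a 95% confidence interval of -0.41 to 0.08 (adjusted p = 0.27).

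ACLY (chr17:40023170-40086795, minus strand), which cleaves citrate to acetyl-CoA, held 464 and 477 CPM with vehicle and 290 and 332 CPM with EC359. It held 412 and 415 CPM with vorinostat and 268 and 249 CPM in the combination. The libraries with EC359 were all below those without it. ACLY fell with EC359 (log2 fold change -0.60, SE 0.09, adjusted p = 0.0025) and on adding EC359 to vorinostat (-0.68, SE 0.09, adjusted p = 0.0011). With vorinostat its log2 fold change was -0.19, with a 95% confidence interval of -0.39 to 0.02 (adjusted p = 0.099). The combination stood at -0.86 against vehicle (SE 0.09, adjusted p = 3.2e-05).

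The 2 enzymes that build palmitate were lower in every library with EC359 than in vehicle. ACACA (chr17:35441927-35766927, minus strand), which makes malonyl-CoA, held 143 and 141 CPM with vehicle and 92.8 and 96.3 CPM with EC359. It held 110 and 114 CPM with vorinostat and 61.5 and 59.4 CPM in the combination. The 4 groups were apart and the combination was the lowest. ACACA fell with EC359 (log2 fold change -0.59, SE 0.08, adjusted p = 0.0018), with vorinostat (-0.34, SE 0.08, adjusted p = 0.006) and with the combination (-1.23, SE 0.09, adjusted p = 2.3e-06). Adding EC359 to vorinostat lowered it by 0.89 on the log2 scale (SE 0.09, adjusted p = 1.6e-04).

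FASN (chr17:80036214-80056170, minus strand), the fatty acid synthase, held 747 and 714 CPM with vehicle and 375 and 389 CPM with EC359. It held 597 and 619 CPM with vorinostat and 405 and 428 CPM in the combination. The 4 libraries with EC359 were below the 4 without it. FASN fell 1.91-fold with EC359 (log2 fold change -0.94, SE 0.08, adjusted p = 8.5e-05) and by 0.55 on the log2 scale when EC359 was added to vorinostat (SE 0.08, adjusted p = 0.0014). With vorinostat alone, where SREBF1 stood 4.17-fold above vehicle, the log2 fold change of FASN was -0.26 (SE 0.08, adjusted p = 0.015). When vorinostat was added to EC359 it was 0.12, with a 95% confidence interval of -0.05 to 0.30 (adjusted p = 0.19).

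Of the chain-modifying enzymes, ELOVL6 changed with vorinostat, FADS1 with EC359, and SCD and FADS2 with each drug. ELOVL6 (chr4:110967002-111120355, minus strand), which lengthens palmitate, held 53.8 and 51.7 CPM with vehicle and 63.1 and 54.0 CPM with EC359. It held 13.2 and 12.5 CPM with vorinostat and 17.5 and 16.2 CPM in the combination. The 4 libraries with vorinostat were far below the 4 without it, from 256 to 342 counts against 1064 to 1531. ELOVL6 fell 4.12-fold with vorinostat (log2 fold change -2.04, SE 0.12, adjusted p = 1.5e-06) and 3.48-fold when vorinostat was added to EC359 (-1.80, SE 0.12, adjusted p = 2.2e-06). It was the only member with a positive log2 fold change for EC359 against vehicle, 0.15 (95% confidence interval -0.11 to 0.41, adjusted p = 0.41), and it was at 0.40 when EC359 was added to vorinostat (adjusted p = 0.044).

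SCD (chr10:102106990-102124583, plus strand), which makes oleate from stearate, held 3006 and 2942 CPM with vehicle and 1227 and 1115 CPM with EC359. It held 1650 and 1665 CPM with vorinostat and 1207 and 1222 CPM in the combination. All treated libraries were below vehicle, and those of the combination lay within the range of EC359 alone. SCD fell 2.54-fold with EC359 (log2 fold change -1.34, SE 0.08, adjusted p = 8.3e-06), 1.79-fold with vorinostat (-0.84, SE 0.08, adjusted p = 1.3e-05) and 2.45-fold with the combination (-1.29, SE 0.08, adjusted p = 8.7e-07). It fell by 0.45 on the log2 scale when EC359 was added to vorinostat (SE 0.08, adjusted p = 0.0028). Between the combination and EC359 the log2 fold change was 0.05 (95% confidence interval -0.12 to 0.22, adjusted p = 0.55), and its sign turned with total counts in place of TMM.

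FADS2 (chr11:61560452-61634826, plus strand), a desaturase at the entry of polyunsaturated fatty acid synthesis, held 504 and 529 CPM with vehicle and 181 and 191 CPM with EC359. It held 210 and 214 CPM with vorinostat and 112 and 121 CPM in the combination. The 4 groups were apart and the combination was the lowest. FADS2 fell 2.78-fold with EC359 (log2 fold change -1.47, SE 0.09, adjusted p = 9.8e-06), 2.43-fold with vorinostat (-1.28, SE 0.09, adjusted p = 2.5e-06) and 4.44-fold with the combination (-2.15, SE 0.09, adjusted p = 1.3e-07). Adding either drug to the other also lowered it, by 0.87 on the log2 scale for EC359 (adjusted p = 1.8e-04) and by 0.68 for vorinostat (adjusted p = 1.0e-04).

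FADS1 (chr11:61567099-61596790, minus strand), the desaturase that makes arachidonic acid, held 363 and 365 CPM with vehicle and 275 and 281 CPM with EC359. It held 368 and 362 CPM with vorinostat and 253 and 249 CPM in the combination. Vehicle and vorinostat overlapped, and the libraries with EC359 were below both. FADS1 fell with EC359 (log2 fold change -0.39, SE 0.08, adjusted p = 0.0085) and when EC359 was added to vorinostat (-0.54, SE 0.08, adjusted p = 0.0013). For vorinostat against vehicle the log2 fold change was 0.0016 (95% confidence interval -0.17 to 0.17, adjusted p = 0.99).

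LPIN1 (chr2:11817721-11967535, plus strand), a phosphatidate phosphatase that yields diacylglycerol, held 75.7 and 76.0 CPM with vehicle and 55.6 and 58.2 CPM with EC359. It held 64.8 and 66.0 CPM with vorinostat and 114 and 113 CPM in the combination. Each drug alone gave libraries below vehicle, and the combination libraries stood above all others. The log2 fold change was -0.42 with EC359 (SE 0.09, adjusted p = 0.012) and -0.21 with vorinostat (SE 0.09, adjusted p = 0.053), neither past the threshold. With DESeq2 the change with EC359 was -0.40 and passed (adjusted p = 0.0047). LPIN1 rose with the combination against vehicle (0.58, SE 0.09, adjusted p = 2.7e-04), against vorinostat (0.79, SE 0.09, adjusted p = 3.2e-04) and against EC359 (0.99, SE 0.09, adjusted p = 1.0e-05). Without EC359 replicate 2 the last value was 1.01, past the fold threshold.

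Several of the smaller changes depended on the libraries used. In a fit of the vehicle and EC359 libraries alone, those of ACACA (adjusted p = 0.042), ACLY (0.05) and FADS1 (0.1) with EC359 missed the threshold. Without vehicle replicate 1 or 2, or vorinostat replicate 1 or 2, the changes with EC359 of ACACA (adjusted p up to 0.03) and ACLY (up to 0.036) no longer passed, and that of FADS1 (up to 0.091) did not pass without a combination library either. The change of ACACA with vorinostat missed the threshold in the same 4 cases (up to 0.062). On adding EC359 to vorinostat, ACLY (up to 0.016), FADS1 (up to 0.021), FASN (up to 0.023) and SCD (up to 0.029) missed it without any of the vorinostat and combination libraries, SCD without either vehicle library as well, and LPIN1 (up to 0.015) without either vorinostat library.

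**Figure D2:**
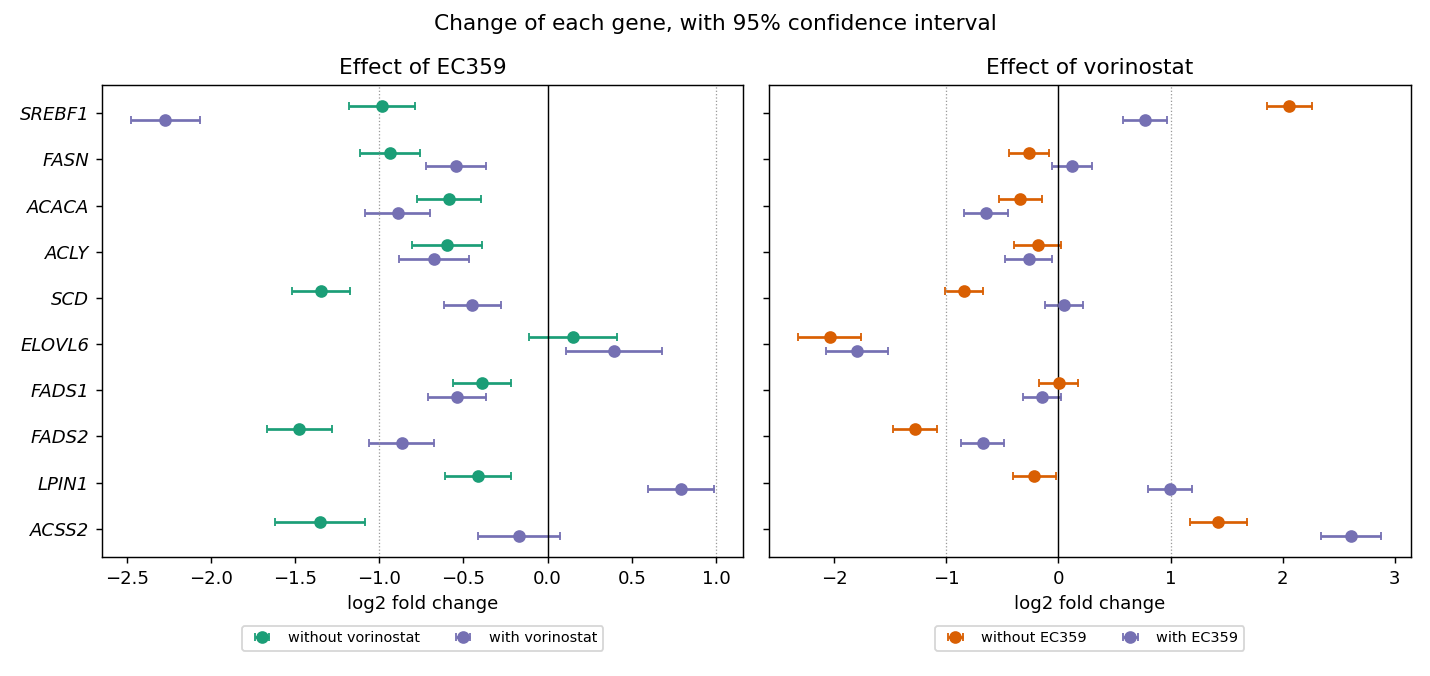
Log2 fold change of each gene with its 95% confidence interval, for EC359 without vorinostat (against vehicle) and with it (against vorinostat) on the left, and for vorinostat without and with EC359 on the right. Dotted lines mark a log2 fold change of -1 and 1. SREBF1 lies further down under EC359 with vorinostat (-2.27) than without it (-0.98), and LPIN1 lies on opposite sides of 0 (0.79 and -0.42).

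To ask whether the effect of EC359 depended on vorinostat, the effect with vorinostat (combination against vorinostat) was compared with the effect without it (EC359 against vehicle), which share no library. In this interaction test, with an adjusted p under 0.01 as the only threshold, 3 of the 10 genes had a higher effect with vorinostat and 1 a lower effect, where 1.62% and 0.482% of all genes did. The fall of SREBF1 was larger with vorinostat, by 1.29 on the log2 scale (SE 0.12, adjusted p = 6.4e-04). The fall of SCD was smaller, -0.45 in place of -1.34 (difference 0.90, SE 0.11, adjusted p = 0.0019). ACSS2 stood at -0.17 in place of -1.35 (difference 1.18, SE 0.16, adjusted p = 0.0037), and LPIN1 at 0.79 in place of -0.42 (difference 1.21, SE 0.12, adjusted p = 8.3e-04). The difference for FADS2 was 0.61 (adjusted p = 0.02) and for FASN 0.39 (adjusted p = 0.075). With DESeq2 that of FADS2 was 0.56 and passed (adjusted p = 0.0041). The differences for ACACA, ACLY, ELOVL6 and FADS1 lay between -0.30 and 0.24.

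These calls rested on few libraries. Without vehicle replicate 1 or 2, vorinostat replicate 1 or 2, or combination replicate 2, only SREBF1 was called, and without combination replicate 1 none of the 10 was (SREBF1 -1.33, adjusted p = 0.011). In those 6 cases the adjusted p was 0.018 to 0.033 for SCD, 0.012 to 0.023 for LPIN1 and 0.02 to 0.054 for ACSS2. Without EC359 replicate 1 FADS2 was called as well (0.57, adjusted p = 0.0025), and without EC359 replicate 2 FADS2 (0.63, adjusted p = 0.0012) and FASN (0.41, adjusted p = 0.0089). The differences of SREBF1, SCD, LPIN1 and ACSS2 kept their sign in all 8 cases.

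Over the 8 libraries, Pearson's r between the log2 CPM of SREBF1 and that of the other members was 0.74 for ACSS2, 0.65 for FADS1, 0.57 for FASN, 0.49 for ACLY, 0.30 for ACACA, 0.25 for SCD, 0.09 for FADS2, -0.08 for LPIN1 and -0.74 for ELOVL6. These values describe 4 groups of 2 libraries that share their treatments. Among 9849 other genes with an average log2 CPM of at least 3, the closest to SREBF1 were HEXIM1 (r = 0.995), P4HA2 (0.990), HIBADH (0.990), GSTP1 (0.989) and YIF1A (0.988), and 52 genes were over 0.95. The changes of these 5 with vorinostat were smaller than that of SREBF1, with log2 fold changes of 0.34 to 0.80.

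Of 19 genes of SREBP control 18 were tested. Vorinostat against vehicle called 4 higher and 1 lower (22.2% and 5.56%, against 16.8% and 13.3% of all genes), and the combination against vehicle 5 higher and 3 lower (27.8% and 16.7%, against 19.5% and 15.3%). Adding vorinostat to EC359 called 4 higher and 2 lower (22.2% and 11.1%, against 19.8% and 13.9%). EC359 against vehicle called 0 in either direction, against 1.94% higher and 1.72% lower of all genes. The other genes called by vorinostat besides INSIG1 and INSIG2 were NR1H3 (LXR alpha, 1.62, adjusted p = 6.6e-04), MLXIPL at very low counts, and USF2. The median log2 fold change of the list was 0.06 with vorinostat and 0.08 with EC359. INSIG1, an endoplasmic reticulum protein that retains SCAP and is itself induced by SREBPs, held 194 and 200 CPM with vehicle, 94.7 and 110 CPM with EC359, 699 and 679 CPM with vorinostat and 840 and 763 CPM in the combination. The groups did not overlap, and INSIG1 stayed high in the combination while SREBF1 did not. It fell with EC359 (log2 fold change -0.95, adjusted p = 2.5e-04), rose with vorinostat (1.80, adjusted p = 9.0e-07), and was at 0.22 when EC359 was added to vorinostat (adjusted p = 0.12). The effect of EC359 on INSIG1 was higher with vorinostat than without it, by 1.17 (adjusted p = 0.0018).

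INSIG2, its relative, rose with vorinostat (1.57, adjusted p = 1.9e-05) and with the combination (1.85, adjusted p = 5.6e-06), and stood at 0.66 with EC359 (adjusted p = 0.016). SCAP, the escort protein, held 119 and 118 CPM with vehicle, 106 and 112 CPM with EC359, 205 and 209 CPM with vorinostat and 146 and 152 CPM in the combination. It rose with vorinostat (0.81, adjusted p = 3.4e-05) and fell when EC359 was added (-0.48, adjusted p = 0.0034), each under the fold threshold. SREBF2, the gene for the SREBP of cholesterol synthesis, stayed between 121 and 168 CPM over the 8 libraries. None of its comparisons passed, with log2 fold changes from -0.25 (EC359, adjusted p = 0.12) to 0.31 (vorinostat added to EC359, adjusted p = 0.019). Of the factors NR1H2 (LXR beta) and USF2, which act on the SREBF1 promoter and lipogenic genes, NR1H2 fell with vorinostat (-0.92, adjusted p = 9.8e-04) and with the combination (-1.25, adjusted p = 1.4e-04). USF2 fell likewise with vorinostat (-1.31, adjusted p = 8.8e-04) and with the combination (-1.31, adjusted p = 8.1e-04). Its libraries lay well apart in the combination (24.7 and 42.4 CPM) and with EC359 (111 and 82.3 CPM).

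The 18 genes of acetyl-CoA, malonyl-CoA and NADPH supply were all tested. EC359 against vehicle called 1 lower, the mitochondrial acetyl-CoA synthetase ACSS1 (-1.10, adjusted p = 0.0037), and 0 higher. These are 5.56% and 0%, against 1.72% and 1.94% of all genes. Vorinostat called 3 higher and 2 lower (16.7% and 11.1%), about the share of all genes (16.8% and 13.3%). The combination against vehicle called 3 higher and 0 lower (16.7% and 0%, against 19.5% and 15.3% of all genes). Adding EC359 to vorinostat called 0 in either direction, against 3.37% and 0.876% of all genes. ACSS1 was also lower with vorinostat (-1.02, adjusted p = 9.4e-04), where ACSS2 rose. The median was 0.42 with vorinostat, beside 0.03 for all genes. IDH1, a cytosolic source of NADPH, rose with vorinostat (0.94, adjusted p = 1.4e-05) and fell with EC359 (-0.90, adjusted p = 1.6e-04). ACACB, the mitochondrial form of acetyl-CoA carboxylase, rose with the combination (1.49, adjusted p = 1.4e-04), opposite to ACACA (-1.23). OXSM, the mitochondrial ketoacyl synthase, rose with vorinostat (1.00, adjusted p = 4.7e-05), as did PRKAA2, a catalytic subunit of AMPK, the kinase that inhibits ACACA (3.13, adjusted p = 2.7e-06). BRCA1, whose product binds phosphorylated ACACA, fell (-1.28, adjusted p = 3.3e-05).

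Of 18 other genes of elongation and desaturation 17 were tested, and vorinostat called 6 higher and 1 lower against vehicle (35.3% and 5.88%, against 16.8% and 13.3% of all genes), with a median of 0.61. The combination called 5 higher and 2 lower (29.4% and 11.8%, against 19.5% and 15.3%). EC359 called 0 in either direction (against 1.94% higher and 1.72% lower of all genes), with a median of -0.17. Adding EC359 to vorinostat called 0 (against 3.37% and 0.876%). FADS3, a desaturase next to FADS1 and FADS2 in the same cluster, held 9.16 and 8.83 CPM with vehicle, 7.63 and 10.2 CPM with EC359, 118 and 115 CPM with vorinostat and 117 and 138 CPM in the combination. The libraries with vorinostat were all above those without it, whereas FADS2 fell with vorinostat and with EC359. FADS3 rose with vorinostat (3.70, SE 0.15, adjusted p = 2.6e-07), and its change with EC359 was -0.02 (95% confidence interval -0.38 to 0.34, adjusted p = 0.95). The elongases ELOVL4 (2.14, adjusted p = 6.7e-06) and ELOVL7 (1.40, adjusted p = 1.3e-04) rose with vorinostat too, unlike ELOVL6, and the other genes called higher were ELOVL2, ELOVL3 and CYB5R4. HACD1 (listed as PTPLA), a dehydratase of the elongation cycle, fell with vorinostat (-1.85, adjusted p = 6.9e-07) and with EC359 (-0.61, adjusted p = 0.0023).

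**Figure D3:**
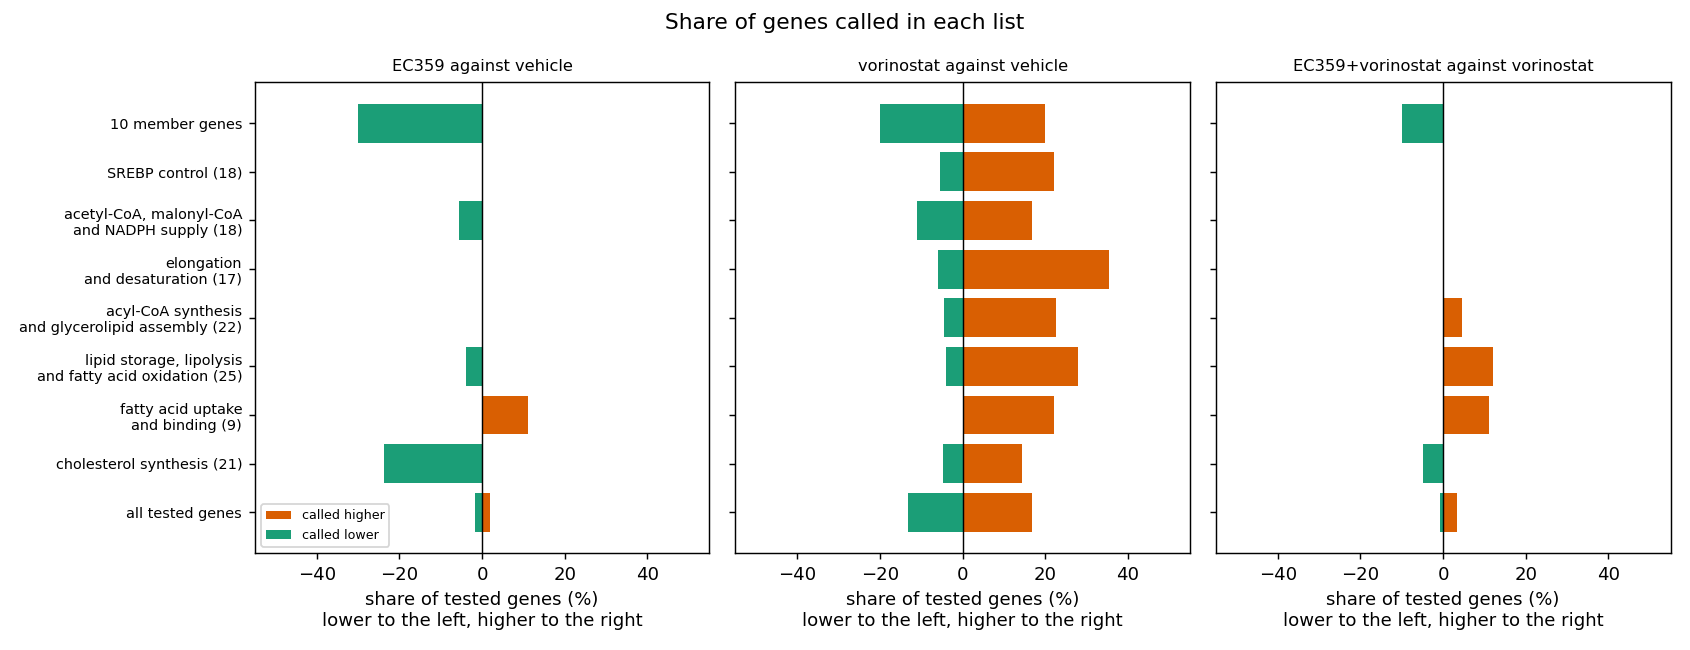
Share of tested genes called higher (bars to the right of 0) and lower (bars to the left) in the 10 genes, 7 pathway lists and all 13694 tested genes, for 3 comparisons, with the number tested in each list in parentheses. Under EC359 against vehicle the 10 genes (3 lower) and the cholesterol list (5 of 21 lower) have the longest bars to the left.

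Of 27 genes of acyl-CoA synthesis and glycerolipid assembly 22 were tested. EC359 called 0 (against 1.94% higher and 1.72% lower of all genes). Vorinostat called 5 higher and 1 lower (22.7% and 4.55%, against 16.8% and 13.3% of all genes). The combination called 3 higher and 3 lower (13.6% each, against 19.5% and 15.3%), and adding EC359 to vorinostat 1 higher (4.55%, against 3.37%). The median was -0.08 with EC359, 0.13 with vorinostat, -0.02 with the combination and -0.23 on adding EC359 to vorinostat. CDS1, which makes CDP-diacylglycerol, rose with vorinostat (4.37, adjusted p = 2.1e-07), as did the acyl-CoA synthetase ACSL3 (2.16, adjusted p = 1.1e-06), the acyltransferase DGAT2 (1.66, adjusted p = 3.5e-05) and LPCAT3 (1.58, adjusted p = 1.5e-06). CHPT1, a choline phosphotransferase, was the gene called lower (-1.07, adjusted p = 3.3e-04). LPCAT3, which places polyunsaturated chains in phospholipids, fell with EC359 (-0.95, adjusted p = 2.2e-04). GPAT3 (listed as AGPAT9), a glycerol-3-phosphate acyltransferase, was the gene called on adding EC359 to vorinostat (1.10, adjusted p = 5.4e-04).

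Of 28 genes of lipid storage, lipolysis and fatty acid oxidation 25 were tested. EC359 called 1 lower (4%, against 1.72% of all genes) and vorinostat 7 higher and 1 lower (28% and 4%, against 16.8% and 13.3%). The combination called 8 higher and 2 lower (32% and 8%, against 19.5% and 15.3%), and adding EC359 to vorinostat 3 higher (12%, against 3.37%). The median was 0.73 with vorinostat and -0.16 with EC359. PLIN2, a coat protein of lipid droplets, held 79.8 and 90.3 CPM with vehicle, 91.7 and 102 CPM with EC359, 87.7 and 83.2 CPM with vorinostat and 737 and 713 CPM in the combination. The combination libraries stood far above the other 6. PLIN2 rose when EC359 was added to vorinostat (3.08, SE 0.10, adjusted p = 2.7e-07), while its changes with EC359 (0.18, adjusted p = 0.24) and vorinostat (0.01, adjusted p = 0.96) did not pass. Its interaction was 2.90 (SE 0.14, adjusted p = 2.3e-05). The lipolysis inhibitor HILPDA (listed as C7orf68) and the lipase coactivator ABHD5 also rose on adding EC359 to vorinostat (1.18, adjusted p = 5.2e-05, and 1.10, adjusted p = 7.2e-04). PNPLA3, a lipid droplet protein whose gene is a known target of SREBP-1, was lower with EC359 (-1.05, adjusted p = 0.0074), with vorinostat (-1.56, adjusted p = 1.4e-04) and with the combination (-2.18, adjusted p = 2.0e-05). The lipase PNPLA2 (2.19, adjusted p = 6.3e-07) and the oxidation enzymes CPT2 (1.27, adjusted p = 6.7e-06) and HADHB (1.39, adjusted p = 3.3e-05) rose with vorinostat.

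Of 18 genes of fatty acid uptake and binding 9 were tested. EC359 called 1 higher (11.1%, against 1.94% of all genes), vorinostat 2 (22.2%, against 16.8%), the combination 2 (22.2%, against 19.5%) and adding EC359 to vorinostat 1 (11.1%, against 3.37%), with 0 lower in each, and with 9 genes a single call sets such a share. The fatty acid binding protein FABP4 held 2.64 and 2.57 CPM with vehicle, 3.75 and 2.59 CPM with EC359, 30.3 and 28.4 CPM with vorinostat and 89.5 and 96.2 CPM in the combination. Vehicle and EC359 overlapped, and the combination was the highest. FABP4 rose with vorinostat (3.49, adjusted p = 5.8e-07) and again when EC359 was added (1.66, adjusted p = 7.7e-05). ADIPOQ, which marks fat cells, held 0 counts in every library. The transporter SLC27A1 rose with vorinostat (2.19, adjusted p = 7.0e-07). VLDLR, a lipoprotein receptor, rose with EC359 (1.27, adjusted p = 5.3e-05) and fell with vorinostat (-0.43, adjusted p = 0.0042).

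Cholesterol synthesis, the pathway mainly under SREBF2, was set beside the 10 genes, and 21 of its 22 genes were tested. EC359 against vehicle called 5 lower and 0 higher (23.8% lower, against 1.72% of all genes) with a median of -0.79, close to the -0.77 of the 10 genes. Vorinostat called 3 higher and 1 lower (14.3% and 4.76%, against 16.8% and 13.3%), with a median of -0.02, and the combination 2 higher and 2 lower (9.52% each, against 19.5% and 15.3%). When EC359 was added to vorinostat, 1 cholesterol gene was called lower (4.76%, against 0.876% of all genes) and the median was -0.03, while that of the 10 genes was -0.54. The interaction was called for 4 cholesterol genes, all higher (19%, against 1.62% of all genes), and the median over the list was 0.74. They were HMGCS1, DHCR7, MVK and MSMO1, the last listed as SC4MOL. The difference between the lists was not tested. Adding vorinostat to EC359 called 10 higher and 0 lower (47.6% higher, against 19.8% of all genes), with a median of 0.88. The share called higher there was 36% for storage, lipolysis and oxidation, 33.3% for uptake and binding and 29.4% for elongation and desaturation. For acetyl-CoA, malonyl-CoA and NADPH supply it was 27.8%, and for acyl-CoA synthesis and glycerolipid assembly 22.7%. MVK (-1.38, adjusted p = 1.7e-04), MVD (-1.51, adjusted p = 7.1e-04) and LSS (-1.06, adjusted p = 2.1e-04), enzymes of the mevalonate pathway and of lanosterol formation, and TM7SF2 (-1.54, adjusted p = 0.0077), a sterol reductase, fell with EC359. LSS fell again when EC359 was added to vorinostat (-1.16, adjusted p = 1.2e-04), whereas MVK was at -0.03 (adjusted p = 0.89). TM7SF2 (2.96, adjusted p = 8.5e-06), the opposite of its change with EC359, IDI1 (1.15, adjusted p = 1.2e-05) and the sterol carrier STARD4 (1.24, adjusted p = 9.0e-05) rose with vorinostat, and ACAT2 fell (-1.52, adjusted p = 3.3e-06).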

How the data were processed

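Total RNA of BT-549 cells was sequenced by the authors as 50 bp single-end reads. Per the submitters' processing notes and the study's methods, reads were aligned to hg19 with TopHat2 2.0.8b and counted on RefSeq genes with HTSeq, whose version and strand setting are not given in the sources used here. The authors deposited raw read counts per gene symbol for each library, without normalization. The HTSeq summary lines were left out (reads outside genes 11.0% to 14.2%, ambiguous reads 0.65% to 0.85% of the reads in these lines and genes).

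Groups came from the sample labels. Genes that passed filterByExpr of edgeR 4.0.16 (R 4.3.3) were scaled by TMM (factors 0.955 to 1.03) and fitted with 1 mean per group over the 8 libraries, in a quasi-likelihood model (common dispersion 0.0135, prior degrees of freedom 4.98). The Benjamini-Hochberg procedure ran over all tested genes. The SE of a log2 fold change is its size over the root of the F statistic. The procedure was tested on simulated data before use, and no outcome of that is reported here. Lengths and positions came from GENCODE v44lift37 on GRCh37, the build that hg19 shares, in which 19146 of 23228 symbols (82.4%) were matched. RPKM used the MANE transcript. Promoters came from RefSeq.

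The members and lists were chosen with earlier results of these data known. Named were all members, INSIG1, INSIG2, SCAP, SREBF2 and, from each list and comparison between groups, the 3 called genes with the largest change among those whose average log2 CPM reached 3, and the 5 genes most like SREBF1. NR1H3, MLXIPL, ACSS1, PRKAA2, PNPLA3, ELOVL2, ELOVL3, CYB5R4, CHPT1, DHCR7, HMGCS1 and MSMO1 were named after their values were seen, to complete short counts. RAI1, FEN1, MIR33B and the cell markers were named for their position or as checks. Some genes of the lists are counted but not reported here by name. As alternatives, DESeq2 1.42.0, scaling by RLE or total counts, other filters and thresholds, fits on the compared groups alone, the replicate number as a block, and leaving out each library were run. The last assumes that the remaining library of a group varies like the others. Figures were drawn with Python 3.11.15 and matplotlib 3.10.9.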

Additional observations from a re-analysis of the deposited data

Results flagged for a closer look

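For 4 of the 10 genes the effect of EC359 differed with and without vorinostat by the interaction test of the model (the quasi-likelihood test of edgeR, Benjamini-Hochberg procedure). The difference in log2 fold change was -1.29 for SREBF1, which fell further with vorinostat, from a change of -0.98 to -2.27. It was 0.90 for SCD, which fell less, 1.18 for ACSS2, which was at -0.17 with vorinostat and fell without it, and 1.21 for LPIN1, whose log2 fold change was negative without vorinostat and positive with it. With each library left out in turn, SREBF1 was called in 7 of 8 fits, and SCD, ACSS2 and LPIN1 in 2 of 8, those without an EC359 library.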

How the results depend on the processing

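With 2 libraries in a group, smaller changes cannot be told from the spread between libraries. Of the alternatives that keep the fold threshold and all libraries, none moved the number of members called by over 1.5 times. Without the fold threshold 8 members passed for EC359 against vehicle, 9 for the combination against vehicle, 8 for the combination against vorinostat and 6 for the combination against EC359, in place of 3, 5, 1 and 2. With each library left out the interaction was called for 0 to 6 members in place of 4. The log2 fold change of SCD between the combination and EC359 turned to -0.013 with total counts, to -0.0092 without a filter, and ranged from -0.032 to 0.11 without single libraries. That of FADS1 with vorinostat ranged from -0.017 to 0.0014, and the interaction of ACLY from -0.19 to 0.013. The causes were not tested. Of 950 member values under all alternatives 853 kept direction and side of the threshold, 65 no longer passed, 17 newly passed and 15 changed sign.

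Over all genes the interaction was called for 288 genes, for 686 with DESeq2, for 925 at an adjusted p of 0.05, and for 56 to 1437 without single libraries. EC359 against vehicle called 502 genes, 233 in a fit of those libraries alone and 298 to 924 without single libraries. The combination against vorinostat called 582, and 285 to 730 without single libraries. Without the fold threshold 1071, 7130, 7718, 1877 and 7642 genes passed for EC359, vorinostat and the combination against vehicle and for the combination against vorinostat and against EC359, in place of 502, 4123, 4763, 582 and 4620. Whether same-numbered libraries of different groups were handled together is not given by the labels. The correlation of their deviations ranged from -0.17 to 0.23, which cannot settle this with 2 libraries in a group. With a replicate block the members called numbered 3, 4, 5, 1, 2 and 4 as before, ACACA with vorinostat (adjusted p = 0.012) and FADS1 with EC359 (0.019) no longer passed, and the interaction was called for 189 genes. With a crossed block, chosen after seeing the data, it was called for 477.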
